A study of Mus musculus with 2 samples.

Results

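The genes described here mark resident myeloid cells, meaning macrophages and dendritic cells, together with genes of the complement system and its receptors, in the stomach of the mouse. They are a list of 41 symbols chosen by function, of which 40 matched a gene among the 43346 mouse genes of the deposited tables. The symbol Serping1os was not analysed here. RNA came from 1 group, the stomach of C57BL/6J mice (a widely used inbred strain) as adults aged 8 weeks, with males and females of a litter pooled. The group has 2 libraries, biological replicates 1 and 2, made from polyadenylated RNA over 200 nucleotides that was also depleted of ribosomal RNA, and read as strand-specific pairs of 76 nucleotides. Each library has its own tissue record, but 1 donor record is named for both. Whether the pools are independent is therefore not known, and every spread given here is that between these libraries. No treatment, genotype or second tissue was compared, so the question is which of these genes were expressed, how strongly, and how much the 2 libraries differed.

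Macrophages live in the wall of the gut, where they engulf microbes and dying cells, and they depend on the growth factor CSF1 acting on its receptor CSF1R. Dendritic cells carry antigen to T cells and need the receptor FLT3 instead. Complement is a cascade of plasma and tissue proteins: C1q binds antibody or damaged surfaces and activates the proteases C1r and C1s, these cut C4 and C2, the product cuts C3, and an alternative route with factor B, factor D and properdin amplifies the cut. The last steps build a pore from C5 to C9, and regulators on host cells hold the cascade back.

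The replicates held 52363597 and 62452468 expected read pairs (replicates 1 and 2), and 3 read pairs on a transcript of 1 kb came to 0.0519 and 0.0437 TPM (a level per length, relative to all transcripts of the library). The labelled tissue was borne out by its own genes: all 9 markers of chief, parietal, pit and neck cells of the gastric gland that were looked up stood above 100 TPM in both replicates. Clps and Pgc, which encode a lipase cofactor and a pepsinogen, together took 29.6% of the TPM in replicate 1 and 42.7% in replicate 2. Over 15234 genes the biological coefficient of variation between the replicates was 0.295, estimated by edgeR.

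Promoter stretches of 3 abundant members are printed first. The transcription factor PU.1, itself a member under the gene name Spi1, recognises an ETS core with the letters GAGGAA. It is known to control many macrophage genes. Of the 40 members, 31 had a RefSeq promoter, running from 250 bases before to 50 bases after the start that RefSeq gives. On either strand, as GAGGAA or its reverse complement TTCCTC, the letters stood in 15 of these 31 (48.4%), against 28.3% of 32851 promoters and 31.3% of 27025 genes with at least 1 promoter. They were found for Aif1, C1qb, C1qc, Cd68, Cfp, Ctss, Cybb, Fcgr1, Fcgr3, Itgam, Laptm5, Mrc1, Ptprc, Siglech and Trem2. A longer composite of an ETS and an interferon regulatory factor core was searched on both strands. It stood in 3 of 31 (9.68%), namely Cd209a, Cd68 and Cybb, against 2.72% of promoters and 3.16% of genes. The 2 searches can overlap in letters, a match is a description of the letters only, and promoters for C2, Cd14, Adgre1, C4b, Tyrobp, Spi1, C1qa, Cfb and Csf1r were not analysed here. The sequences below belong to the 3 members of highest level whose promoter held the letters, with the match in capitals. All lie on chromosome 4 of GRCm38.p6, written 5′ to 3′ on the strand of the gene: C1qc at chr4:136892865-136893164 on the minus strand, C1qb at chr4:136886151-136886450 on the minus strand and Laptm5 at chr4:130913066-130913365 on the plus strand.
C1qc: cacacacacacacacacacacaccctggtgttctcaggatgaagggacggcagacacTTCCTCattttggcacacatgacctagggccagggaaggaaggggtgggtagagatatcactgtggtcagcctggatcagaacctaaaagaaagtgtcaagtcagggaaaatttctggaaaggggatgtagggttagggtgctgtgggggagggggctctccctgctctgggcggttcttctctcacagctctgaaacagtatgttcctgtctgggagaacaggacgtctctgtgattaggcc
C1qb: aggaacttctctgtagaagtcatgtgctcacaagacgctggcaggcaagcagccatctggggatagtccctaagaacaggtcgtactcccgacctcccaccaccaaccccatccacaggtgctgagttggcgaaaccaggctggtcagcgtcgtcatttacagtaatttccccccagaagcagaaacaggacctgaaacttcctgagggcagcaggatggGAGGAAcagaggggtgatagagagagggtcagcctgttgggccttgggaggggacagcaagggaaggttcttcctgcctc
Laptm5: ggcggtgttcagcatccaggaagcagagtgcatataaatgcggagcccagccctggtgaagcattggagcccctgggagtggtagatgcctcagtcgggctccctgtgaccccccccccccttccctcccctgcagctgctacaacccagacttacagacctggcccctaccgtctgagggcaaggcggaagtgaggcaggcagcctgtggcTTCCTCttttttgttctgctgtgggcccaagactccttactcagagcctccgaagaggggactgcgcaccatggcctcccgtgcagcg
The match lay 193 bases before the RefSeq start in C1qc, 30 bases before it in C1qb and 38 bases before it in Laptm5. GENCODE, the source of the gene positions given below, has other starts. Its Laptm5 begins at 130913125, so that the match lies inside the gene. Its C1qc starts at 136893065, nearer to the match. The match reads TTCCTC, thus on the opposite strand, in C1qc and Laptm5, and GAGGAA in C1qb.

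Of the 40 members, 26 (65.0%) reached a TPM of at least 1 in both replicates, where 25.2% of all genes and 48.9% of protein-coding genes did. By kind, these were 16 of 29 myeloid members and 10 of 11 complement members. The median of the mean TPM over the 40 members was 2.87, against 1.15 over protein-coding genes. A mean TPM of at least 10 was reached by 13 members, at least 50 by 2 (Cyba and C1qc) and at least 100 by Cyba alone. In all, the members summed to 597 and 434 TPM (replicates 1 and 2), and Cyba with the 3 C1q chains made up 55.6% and 48.4% of that. In bulk tissue, fewer cells of a type and less RNA per cell cannot be told apart, so each level is one of the whole organ.

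**Figure D1:**
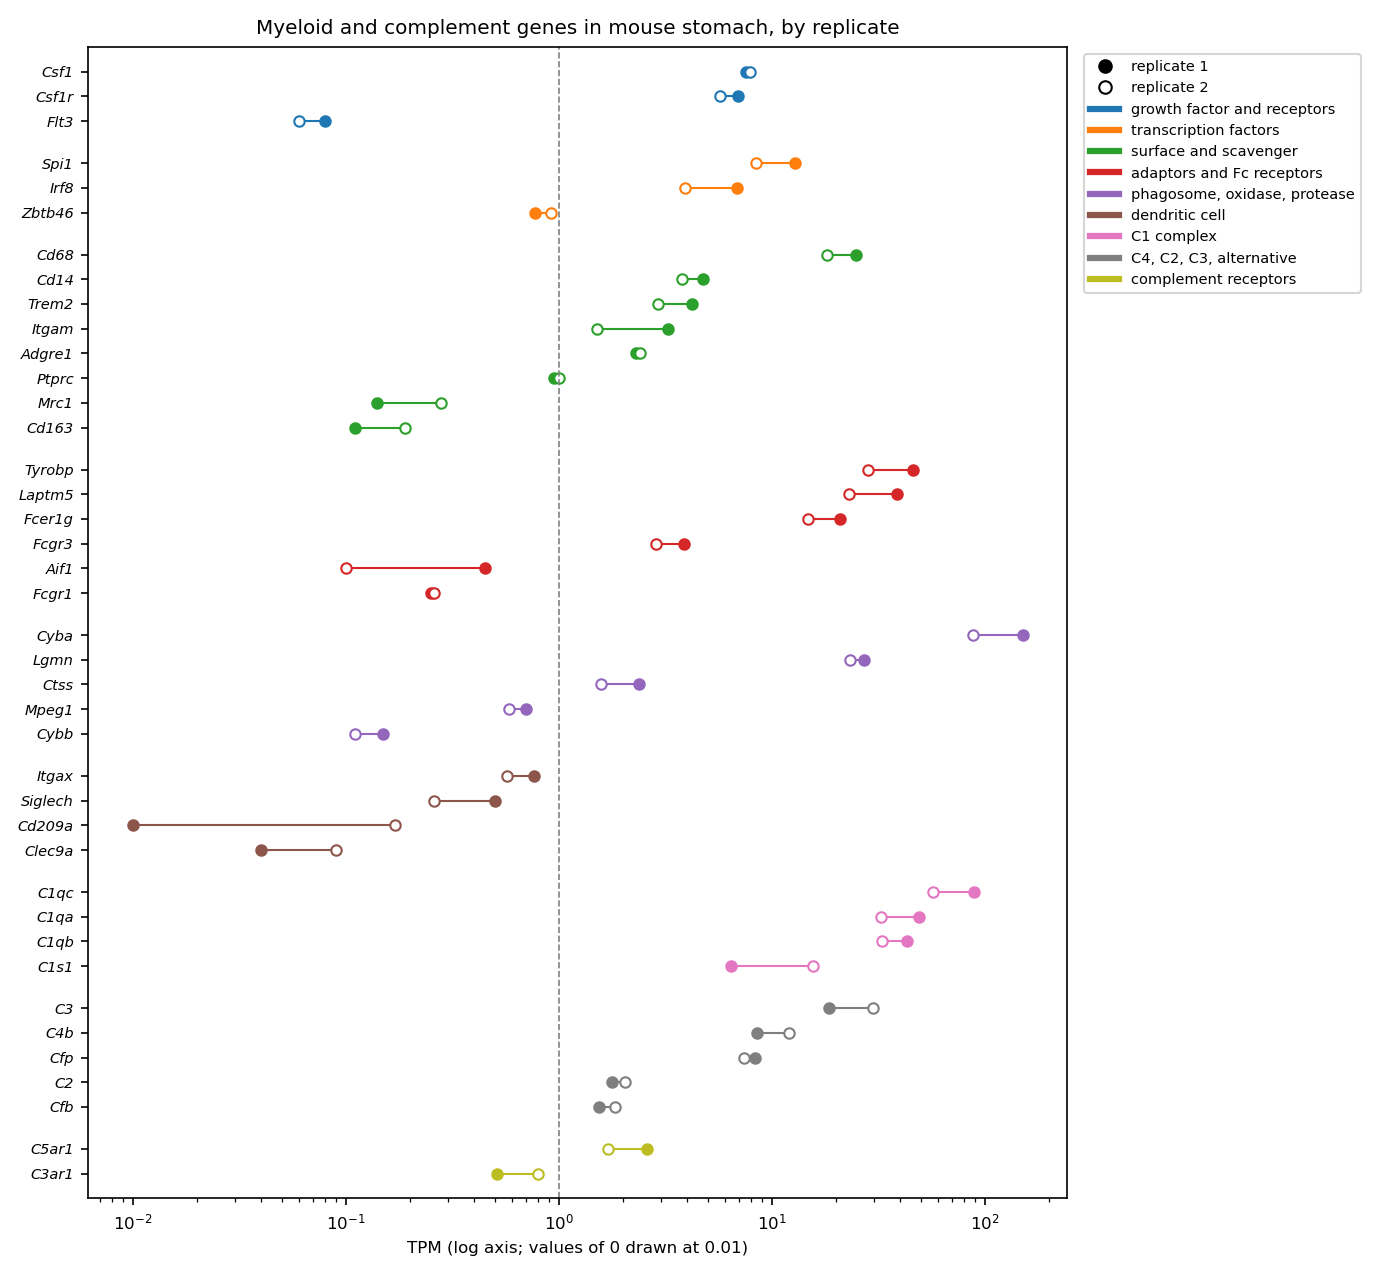
TPM of each of the 40 members on a log axis, grouped by role, with replicate 1 as filled and replicate 2 as open points joined by a line; the dashed line marks a TPM of 1 and a value of 0 is drawn at 0.01. Cyba, C1qc, C1qa, C1qb, Tyrobp and Laptm5 are the highest by mean, all 4 dendritic cell genes lie left of the dashed line in both replicates, and Cd209a at the lower end has no read pairs in replicate 1.

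The growth factor of macrophages and its receptor were both present at several TPM, while the receptor of the dendritic lineage was under 0.1 TPM. Csf1, the growth factor itself (chromosome 3, 107741048 to 107760469 on mm10), had 7.55 TPM in replicate 1 and 7.88 TPM in replicate 2. Csf1r, its receptor and a defining macrophage gene (chromosome 18, 61100598 to 61132149), had 6.93 and 5.72 TPM. Il34, the other ligand of CSF1R, was no member and stood at 7.36 and 9.32 TPM, close to Csf1. Flt3, the receptor of dendritic cell precursors, had 0.08 and 0.06 TPM from 16 and 15 read pairs.

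Among transcription factors, Spi1, which encodes PU.1, the master regulator of myeloid cells (chromosome 2, 91082390 to 91115756), had 12.9 TPM in replicate 1 and 8.42 TPM in replicate 2. Irf8, which directs monocyte and dendritic cell development (chromosome 8, 120736358 to 120756694), had 6.85 and 3.89 TPM. Both were higher in replicate 1. Zbtb46, a factor of classical dendritic cells that vessel lining cells also use, was under 1 in both, at 0.77 and 0.92 TPM.

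The surface and scavenger genes of macrophages spread over more than 100-fold in level. Cd68, a lysosomal glycoprotein (chromosome 11, 69664213 to 69666153), led with 24.9 and 18.1 TPM, a mean of 21.5 ± 4.81 (SD, n = 2). Cd14, the co-receptor for bacterial lipopolysaccharide, had 4.77 and 3.79 TPM. Trem2, a receptor for lipids and cell debris, had 4.23 and 2.91 TPM. Cd68 was the highest of these in both replicates. The ranges of Cd14 and Trem2 overlapped, with Cd14 the higher in each replicate. Itgam, the integrin chain CD11b, had 3.24 and 1.51 TPM, and Adgre1, which encodes F4/80, the classical mouse macrophage antigen, had 2.31 and 2.40 TPM. The replicates of Itgam lay on either side of those of Adgre1, so these neighbours in level did not differ beyond their spread. Ptprc, the leukocyte antigen CD45, stood just at the limit with 0.95 and 1.00 TPM. Mrc1, the mannose receptor CD206, had 0.14 and 0.28 TPM, and Cd163, the scavenger of haemoglobin with haptoglobin, had 0.11 and 0.19 TPM. For Cd163 this rested on 27 and 54 read pairs and for Mrc1 on 28 and 101, well above the 3 that set the limit of detection.

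Adaptors that signal for myeloid receptors were among the most abundant members. Tyrobp, which encodes DAP12, the adaptor of TREM2 (chromosome 7, 30413760 to 30417585), had 45.8 and 28.2 TPM. Laptm5, a lysosomal membrane protein of blood-forming lineages (chromosome 4, 130913125 to 130936141), had 38.7 and 22.9 TPM. Fcer1g, the common chain of Fc receptors (chromosome 1, 171229572 to 171234365), had 20.8 and 14.8 TPM. Each was higher in replicate 1 than in replicate 2, and the Fc receptors that need the common chain were lower than it in both. Fcgr3, a low-affinity receptor for IgG, had 3.87 and 2.86 TPM, while Fcgr1, the high-affinity one, had 0.25 and 0.26 TPM. Aif1, which encodes the microglial and macrophage marker IBA1, was carried by 7 and 4 read pairs only, at 0.45 and 0.10 TPM.

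The subunits of the phagocyte oxidase, which makes superoxide, lay far apart in level. Cyba, its small subunit p22phox, which also serves oxidases of other cell types (chromosome 8, 122424776 to 122432930), had 151 TPM in replicate 1 and 87.5 TPM in replicate 2, a mean of 119 ± 44.6 (SD, n = 2) that stood at percentile 97.2 of protein-coding genes. Cybb, the large catalytic subunit gp91phox, had 0.15 and 0.11 TPM from 27 and 34 read pairs. The cytosolic subunits Ncf1 and Ncf4, which were no members, lay between them, at 9.21 and 3.34 TPM for Ncf1 and 4.33 and 2.43 TPM for Ncf4. Of the lysosomal proteases, Lgmn, the asparagine-specific legumain (chromosome 12, 102394084 to 102439813), had 27.15 and 23.2 TPM, and Ctss, cathepsin S, which trims the invariant chain, had 2.38 and 1.58 TPM. Legumain was thus above cathepsin S in both replicates. Mpeg1, the pore-forming perforin-2 of phagocytes, had 0.70 and 0.58 TPM.

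The 4 dendritic cell genes were all under 1 TPM in both replicates. Itgax, the integrin chain CD11c, was the highest of them with 0.76 and 0.57 TPM from 169 and 152 read pairs. Siglech, a lectin of plasmacytoid dendritic cells, had 0.50 and 0.26 TPM. Clec9a, the receptor by which cross-presenting dendritic cells sense dead cells, had 0.04 and 0.09 TPM. Cd209a, a mouse relative of the lectin DC-SIGN, had 0 read pairs in replicate 1, where 3 read pairs would be 0.0406 TPM, and 15 in replicate 2, at 0.17 TPM. Further dendritic cell genes, 20 listed and 19 matched, included 9 at 1 TPM or more in both replicates. The most abundant of these were Ly6d (725 and 636 TPM), Cd24a (273 and 237 TPM), Bst2 (65.0 and 44.7 TPM) and Fscn1 (17.3 and 12.4 TPM), which epithelial or other cells are also known to express. Also among those that passed were Tcf4 (7.42 and 10.4 TPM), Kit (5.21 and 6 TPM) and Batf3 (3.14 and 1.28 TPM). So were Clec10a (1.49 and 2.15 TPM) and Cadm1 (1.38 and 1.05 TPM). Xcr1, which is restricted to cross-presenting dendritic cells, had 0.02 and 0.04 TPM, and Klrd1 had no reads.

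The complement genes began with a strong signal for C1q. Its chains A, B and C, which assemble in equal numbers into the recognition molecule, lie side by side on chromosome 4, from C1qb (136880129 to 136886187) over C1qc (136889804 to 136893065) to C1qa (136895917 to 136898803), all on the minus strand. C1qc had 89.2 TPM in replicate 1 and 57.3 TPM in replicate 2. C1qa had 49.1 and 32.5 TPM, and C1qb had 43.0 and 32.8 TPM. All 3 were higher in replicate 1, C1qc was the highest chain in both, and C1qa and C1qb did not differ beyond their spread. As means they were 73.3 ± 22.6, 40.8 ± 11.7 and 37.9 ± 7.22 TPM for C1qc, C1qa and C1qb (SD, n = 2). C1s1, the protease of the C1 complex (chromosome 6, 124530345 to 124542359), had 6.44 and 15.6 TPM, higher in replicate 2. C1ra, its partner protease and no member, was in the same range at 8.72 and 12.1 TPM. The second copies of both proteases, C1s2 and C1rb, had at most 0.09 TPM in either replicate.

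The other members of the classical and alternative routes were all lower by mean than each of the C1q chains. C3, the central component, cut by both routes (chromosome 17, 57203970 to 57228136), had 18.45 TPM in replicate 1 and 29.9 TPM in replicate 2. C4b, the complement component cut by C1s, had 8.55 and 12.1 TPM. Both were higher in replicate 2, as C1s1 was. Cfp, properdin, which stabilises the alternative convertase and is made by myeloid cells (chromosome X, 20925454 to 20931555), had 8.37 and 7.39 TPM. C2, the serine protease that joins C4, had 1.77 and 2.04 TPM. Cfb, its counterpart factor B in the alternative route, had 1.55 and 1.83 TPM. C4b (34728380 to 34743882), Cfb (34856374 to 34862518) and C2 (34862604 to 34898265) lie in the same region of chromosome 17, with C4a between C4b and Cfb. C2 and Cfb lie end to end, and their ranges overlapped, with C2 the higher in each replicate. C5ar1, the receptor of the C5a fragment, had 2.59 and 1.70 TPM, and C3ar1, that of C3a, had 0.51 and 0.80 TPM, so that C5ar1 was the higher in both replicates.

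The steps of the cascade after C3 were thinly covered, and its regulators were not. Of 21 other activating components, 4 reached 1 TPM in both replicates: Cfd (49.9 and 126 TPM), which encodes factor D or adipsin and is known from fat cells, C1ra, the scavenger lectin Colec12 (3.71 and 3.66 TPM) and the ficolin Fcna (1.92 and 2.69 TPM). Hc, the mouse C5 gene, had 0 and 2 read pairs. C6, C7, C8a, C8b and C9 were all under 0.5 TPM, and C8g alone of the pore genes passed 1 TPM in a replicate, at 1.75 and 0.90 TPM. The mannose-binding lectins Mbl1 and Mbl2 and the ficolin Fcnb had no reads. Of 18 regulators and other control genes, 9 reached 1 TPM in both replicates, led by Clu, the pore inhibitor clusterin (1955 and 1499 TPM), and Serping1, the C1 inhibitor (118 and 131 TPM). Cpn1, a subunit of carboxypeptidase N, had 20.1 and 17.6 TPM, and Cd55, the decay-accelerating factor, had 10.45 and 12.0 TPM. Cd46, a membrane cofactor protein, had 0 and 3 read pairs.

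**Figure D2:**
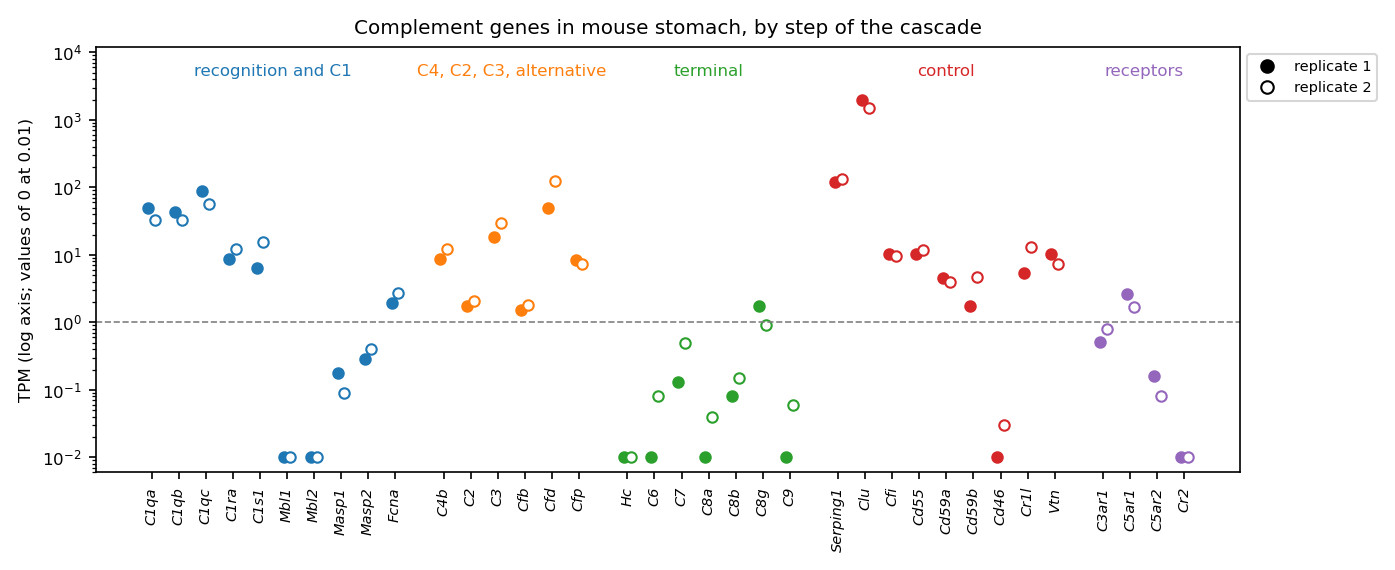
TPM of complement genes on a log axis, in the order of the cascade, with replicate 1 as filled and replicate 2 as open points, values of 0 drawn at 0.01 and the dashed line at a TPM of 1. The C1q chains, C3, C4b and Cfd lie above the line and all terminal genes other than C8g below it, while Clu and Serping1 among the regulators are above 100 TPM in both replicates.

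Of other macrophage genes, 19 of 30 reached 1 TPM in both replicates, among them Apoe (356 and 219 TPM), Ctsb (187 and 185 TPM) and Lyz2 (29.6 and 26.5 TPM). Under 1 TPM in both replicates were 9 of the 30. Of these, Timd4 had 0.01 and 0.15 TPM, Marco 0.02 and 0.03 TPM and Msr1 0.05 and 0.11 TPM. Il10 had no reads and Vsig4 had 1 read pair in each replicate. Markers of other blood cells differed from list to list. Of neutrophil genes 1 of 10 passed 1 TPM in both replicates (Retnlg, 15.9 and 2.55 TPM), and S100a8 and Ly6g had no reads. T cell genes passed in 0 of 8 cases. B and plasma cell genes passed in 4 of 9, led by Igkc (15.5 and 25.9 TPM) and Igha (24.5 and 9.94 TPM). Monocyte genes passed in 2 of 8, namely Plac8 (106 and 137 TPM) and Nr4a1 (7.30 and 6.01 TPM). The liver, the main source of plasma complement, was represented by 2 of 7 genes, Ttr, the transthyretin gene (75.91 and 76.04 TPM), and Ahsg (1.54 and 1.91 TPM), while Alb, the albumin gene, had 0.08 and 0.61 TPM. The 7 fibroblast genes, a cell type known to make C3, C4 and C1s, all passed, and summed to 205 TPM in replicate 1 and 303 TPM in replicate 2. What these cells add to the level of any member was not tested.

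The replicates did not differ alike over the list. Ratios are log2 of replicate 1 over replicate 2, from counts scaled by TMM with a prior count of 2, and each interval covers counting error only. The 26 members with a mean TPM of at least 1 are the ones described, and 19 of them were higher in replicate 1 and 7 in replicate 2, where 54.3% and 45.6% of 11582 genes at that level were. Their median was 0.44, against 0.05 over those genes. Past 2-fold higher in replicate 1 was Spi1 alone (background 5.96%), and past 2-fold higher in replicate 2 was no member (background 2.66%). The central 95% of all ratios ran from -1.01 to 1.36, and Spi1 was the only member outside it. Counting intervals lay wholly above 0 for 19 members (background 43.6%) and wholly below 0 for C3, C4b and C1s1 (background 33.1%). They covered 0 for the other 4.

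Among the members with a mean TPM of at least 1, the direction differed between kinds of gene. Of the 16 myeloid members, 14 were higher in replicate 1, with a median of 0.54, and the exceptions Csf1 (-0.07) and Adgre1 (-0.02) had intervals that covered 0. The sign of Adgre1 turned with DESeq2 size factors. Among myeloid members under a mean TPM of 1, intervals lay wholly below 0 for Mrc1 (-1.50), Cd163 (-0.68), Zbtb46 (-0.47) and Cd209a (-2.97). Itgax (0.44) alone had one wholly above 0, and the intervals of the rest covered 0. All 3 C1q chains were higher in replicate 1, at 0.66 for C1qc, 0.61 for C1qa and 0.41 for C1qb. Of the other 7 complement members, 2 were higher in replicate 1 (C5ar1 at 0.64 and Cfp at 0.26) and 5 in replicate 2, with a median of -0.09. The lowest of these were C1s1 at -0.89 (95% interval -1.05 to -0.74), C3 at -0.67 (-0.71 to -0.62) and C4b at -0.46 (-0.54 to -0.39). C2 at -0.09 and Cfb at -0.05 had intervals that covered 0. These directions of the 3 sets held under TMM, DESeq2 size factors, library totals, spike-in totals and totals without Clps and Pgc. The last of these moved the median of all genes to -0.18, and the medians to 0.31 for the myeloid members, 0.38 for the C1q chains and -0.31 for the other complement members.

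**Figure D3:**
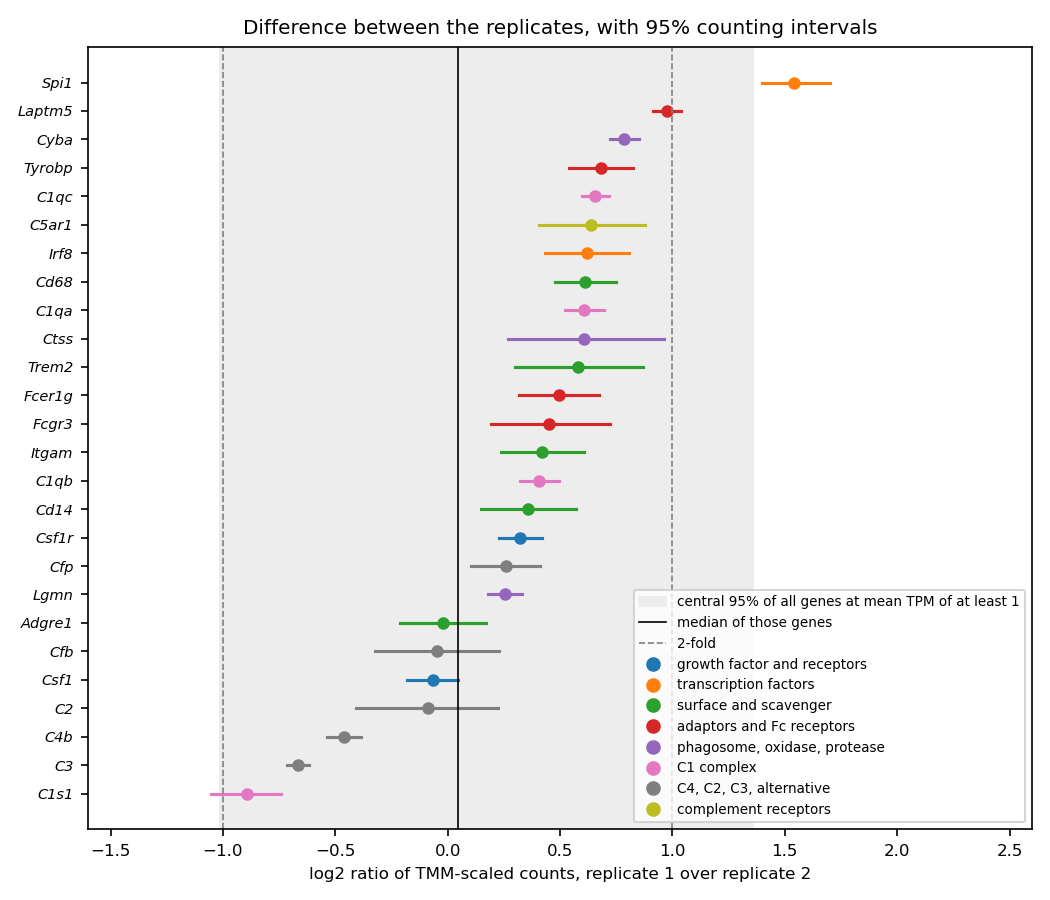
Log2 ratio, replicate 1 over replicate 2, of TMM-scaled counts for the 26 members with a mean TPM of at least 1, coloured by role, with 95% counting intervals; the grey band holds the central 95% of all genes at that level and the black line is their median. Spi1 at 1.54 lies outside the band, and C4b, C3 and C1s1 have intervals wholly below 0.

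Whole marker lists of other cells moved between the replicates as well. The red blood cell list summed to 614 TPM in replicate 1 and 210 TPM in replicate 2 (4 of 5 genes detected, all 4 higher in replicate 1, median 1.43). The MHC class II list, of antigen-presenting cells, summed to 816 and 380 TPM (6 of 7 detected, all 6 higher in replicate 1, median 0.93). Mast cell genes summed to 90.1 and 45.7 TPM (5 of 7 detected, 4 higher in replicate 1, median 0.96). The 2 lists of stromal cells went the other way, fibroblast genes with 6 of 7 higher in replicate 2 and a median of -0.52, and endothelial genes, which summed to 180 and 199 TPM, with 5 of 6 higher in replicate 2 and a median of -0.47. The fat cell list summed to 74.5 and 148 TPM, most of it Cfd. Other macrophage genes were higher in replicate 1 in 14 of 19, with a median of 0.25. Other dendritic cell genes were so in 7 of 9, with a median of 0.35. Monocyte genes went the other way, with 3 of 4 higher in replicate 2 and a median of -0.59. The part of cell composition in the ratios of the members was not tested.

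**Figure D4:**
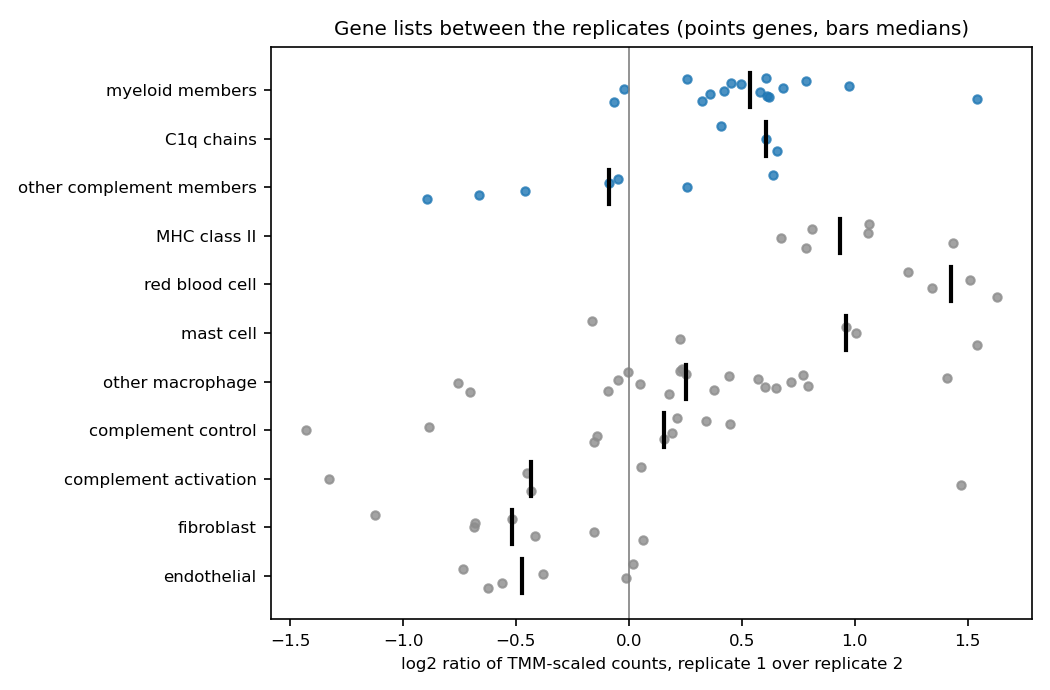
Log2 ratio, replicate 1 over replicate 2, of each gene with a mean TPM of at least 1 in the members (blue) and in marker and complement lists (grey), with a black bar at the median of each list. The myeloid members and C1q chains lie mostly right of 0, as do the MHC class II, red blood cell and mast cell lists. The fibroblast and endothelial lists lie mostly left of 0. The monocyte and dendritic cell lists are not drawn.

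Among the members past a mean TPM of 1, Spi1 had the largest ratio in scaled counts, though not in TPM, where C1s1 was 0.413-fold and Itgam 2.15-fold, and its transcripts differed too. Its read pairs numbered 1218 in replicate 1 and 509 in replicate 2, a ratio of 1.54 (95% interval 1.40 to 1.70), or 2.91-fold in counts, but 1.53-fold in TPM. The full-length Spi1-201 (2034 bases) had 11.3 TPM in replicate 1, or 87.4% of the gene, and 2.98 TPM in replicate 2, or 35.4%. The short Spi1-204 (544 bases) had 1.00 TPM, or 7.79%, in replicate 1 and 5.44 TPM, or 64.6%, in replicate 2. The mean effective length of the gene, by which the count is divided, was 1633 bases in replicate 1 and 880 in replicate 2. In the junction table, which pools both libraries, an intron of 664 bases and one of 2436 bases that only Spi1-201 has carried 27 and 66 reads, and an intron of 16906 bases that only Spi1-204 has carried 4 reads.

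The leading transcript differed between replicates in 4 of the 26 members past a mean TPM of 1, namely C1s1, Cfb, Itgam and Spi1. For Itgam the TPM of replicate 1 rested to 40.2% on Itgam-206, a fragment of 349 bases annotated as a target of nonsense-mediated decay, which had 0 in replicate 2. In read pairs Itgam had 511 and 466. The full-length C1s1-204 had 41.5% of its gene in replicate 1 and 28.5% in replicate 2, and the retained-intron fragment C1s1-201 had 17.2% and 36.1%. Cfb was divided between Cfb-206 (62.2% and 37.8%), Cfb-201 (32.7% and 0.15%) and Cfb-207 (0% and 39.1%), all of them coding.

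Over all levels, 22 members had at least 2 transcripts at 10% or more of the gene in a replicate, 13 of them past a mean TPM of 1. Short non-coding transcripts took a large share of some. Cd68-203, a processed transcript, had 52.9% and 63.7% of Cd68, and Irf8-202, a retained intron, had 61.5% and 50.6% of Irf8. These shares are per length, so short transcripts weigh more in them than in read pairs. In replicate 1, Cd68-203 held 309 of 1003 read pairs and Irf8-202 held 136 of 539. C2-201, the coding form of C2, had 55.9% and 50.5%. Coding forms made up most of others. Csf1-202 had 69.1% and 62.1% of Csf1 and Csf1-203 had 28.8% and 23.5%. Fcer1g-201 had 71.8% and 93.7%, and Trem2-201 had 65.0% and 91.8%, with the coding Fcer1g-203 and Trem2-202 next. C4b-201 had 87.5% and 87.4%, alike in both replicates. In Ptprc, known for its alternative exons, the short Ptprc-213 (702 bases) had 47.5% and 45.7%. This rested on 13 and 16 of the 133 and 156 read pairs of the gene. The retained intron Ptprc-210 had 19.98% and 28.3%. The long Ptprc-207 and Ptprc-203 had 21.8% and 10.7% in replicate 1 and 6.31% and 16.5% in replicate 2.

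Splice junctions, counted over both libraries together on mm9, could be tied to 35 of the 40 members by intron length and spacing, with 379 of the 542 annotated introns of these members and 44740 reads. C3 had 39 of 43 introns and 10311 reads, the most of any member. C4b had all 41 introns with 5161 reads, and Lgmn all 13 with 4999. Cyba had 6 of 8 introns and 7408 reads, and C1qc both of its introns and 2645 reads, where C1qb had 516 reads and C1qa 213 over their pairs of introns. Low members had few junction reads: Cybb had 8 of 15 introns with 28 reads, Mrc1 12 of 29 with 88, Flt3 9 of 24 with 28 and Cd209a 2 of 8 with 3. Of these matched junctions, the significance field was 0.1 or lower in 1 of Cybb, 2 of Mrc1 and 0 of Flt3 and Cd209a. Aif1, C3ar1, C5ar1, Cd14 and Mpeg1 were not tied to junctions. C3ar1, Cd14 and Mpeg1 have 1 annotated intron each, so they could not meet the minimum of 2 junctions. C5ar1 has 2 annotated introns and Aif1 has 9.

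Reads shared with other genes touched few members. The posterior standard deviation of the count was under 1% of it in both replicates for C2, Cfb and C4b, which have relatives or overlapping gene models. Irf8 lies within the overlapping model Gm20388 on the same strand, which held 8356 and 7702 read pairs, and the posterior standard deviation of the Irf8 count was 0% in both replicates. Cyba lies within it on the opposite strand, and the library was made strand-specific. C2 and Cfb share a strand with the model Gm20547, which held 0 counts. Itgam and Itgax, both on chromosome 7, lie next to each other, as do Fcgr3 and Fcer1g within the same part of chromosome 1.

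Level and GC content went together among the members. The 26 detected ones had a GC content of 46.0% to 59.5% with a median of 52.9%, and the 14 others 39.4% to 51.6% with a median of 45.6%. Over protein-coding genes, the share detected was 18.8% in the lowest of 10 GC bins, set on expressed genes, and 71.2% in the highest. Cybb, at 42.4% GC, was lower than Cyba, at 59.3%, here as it was in level. The ratio between replicates moved with GC as well: the median over protein-coding genes was -0.20 in the lowest bin and 0.41 in the highest. After subtraction of the median of the same bin, a step chosen after seeing the data, the median was 0.50 for the myeloid members, with 15 of 16 above 0. It was 0.20 for the C1q chains, with 3 of 3 above 0, and -0.15 for the other complement members, with 2 of 7 above 0. Spi1 stood at 1.13, C3 at -0.73, C1s1 at -0.76 and C4b at -0.61. The part of GC content in the levels was not tested.

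**Figure D5:**
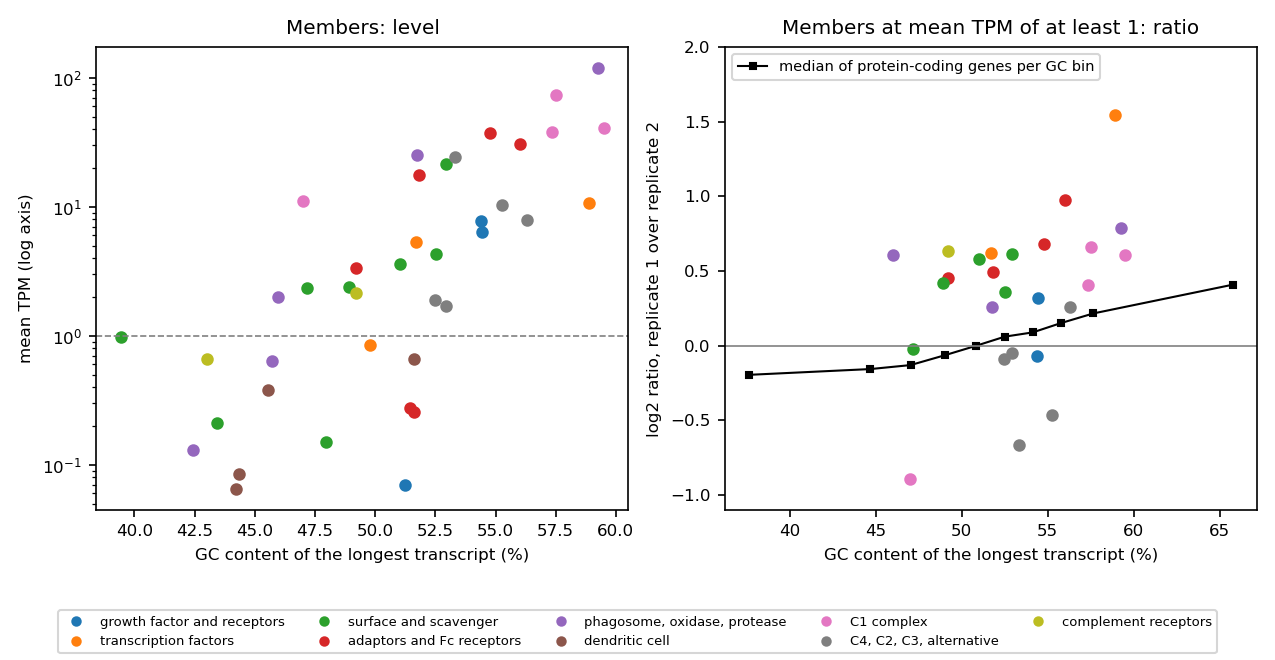
Left, mean TPM of the 40 members on a log axis against the GC content of the longest transcript in percent, coloured by role; right, log2 ratio of replicate 1 over replicate 2 for the 26 members with a mean TPM of at least 1, with black squares at the median of protein-coding genes in 10 GC bins. The 26 members at a TPM of at least 1 in both replicates have a median GC of 52.9%, the 14 others one of 45.6%, and C1s1, C3 and C4b lie below the line of bin medians, which ends at 0.41.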

How the data were processed

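Both libraries are stomach, and each has a gene table and a transcript table on mm10 with GENCODE M4 models, per the README the authors deposited beside them. The deposited expected counts are estimated read pairs, per the file headers, with shared reads divided by a model, and were rounded for scaling. The deposited TPM is per length and relative to all transcripts of the library, spike-ins included, and the deposited FPKM, per the file headers, was an alternative. The percent that a transcript holds of its gene was deposited by the authors. The authors deposited 1 junction table for both libraries on mm9, with a read count and a score per junction, the score being a significance field that the sources used here do not define. Aligner and quantifier version were not given in the sources used here.

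Names, positions, GC content and transcript types came from GENCODE M21, which named 42462 of 43346 gene IDs (98.0%), and promoters from RefSeq on GRCm38.p6. No coordinates were converted: a member was tied to mm9 junctions where at least 2 had the lengths and spacing of its introns. Spike-ins (1.14% and 1.12% of expected counts), phiX (0.252% and 0.185%) and 26248 features with numeric IDs and no counts stayed out of library sizes.

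With 1 group no contrast exists and no p-value was computed. Ratios are log2 of counts scaled by TMM (edgeR 4.0.16, R 4.3.3) with a prior count of 2, with exact conditional binomial (Clopper-Pearson) intervals at 95%. The reads carry no molecular identifiers and are not independent molecules, so intervals and limits of detection (3 read pairs) cover counting error only. The scaling and a log2 ratio of similar form were tested on simulated counts of well-covered genes, with less spread than in these data. The intervals and the limits of detection were not tested. DESeq2 1.42.0 gave alternative size factors. The genes and the lists were chosen with earlier results of these data known. The text names every member, up to 4 genes of highest mean TPM and up to 2 below a TPM of 1 of each further list, transcripts of members with at least 2 at 10% or more and of Csf1 and Ptprc, and 3 promoters. Named outside this rule, after their values were seen, were Il34, Ncf1, Ncf4, C1s2, C4a, C1rb, the pore genes, Fcnb, Cd46 and the gastric markers. So were Tcf4, Kit, Batf3, Clec10a and Cadm1 of the further dendritic cell genes. The same holds for Timd4, Marco and Msr1 of the other macrophage genes.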

Additional observations from a re-analysis of the deposited data

How the results depend on the processing

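Of the 26 members detected at a TPM of 1, 16 were detected at a minimum of 5. Leaving out 1 replicate gave counts of 26 to 27. The median level of 2.87 TPM was 4.58 after rescaling without Clps, Pgc and spike-ins, 9.10 over members with a mean TPM of at least 1 only, and 2.63 to 3.56 with 1 replicate left out. The median log2 ratio of 0.44 was 0.21 with totals without Clps and Pgc, where the median of all genes was -0.18, and 0.33 without a filter on low values. Its sign was the same under the 9 alternatives run. The single member past 2-fold, Spi1, became 2 with totals without Clps and Pgc (Spi1 and C1s1) and 3 without a filter (Spi1, Mrc1 and Cd209a). The added genes C1s1, Mrc1 and Cd209a were higher in replicate 2. On log2(TPM + 1) the count was again 1, but the gene was C1s1 at -1.16 and not Spi1. Why these values moved was not tested, apart from the filters, which change the genes counted. Leaving out a replicate leaves no ratio, and those results have no such value. Members tied to junctions numbered 31 with at least 3 junctions required and 27 with a significance field of 0.1 or lower, against 35. No paired analysis was possible because there is 1 group. Members under about 10 read pairs, such as Aif1 and Clec9a, have levels that depth limits.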
